A study of Mus musculus with 10 samples.

Results

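Ribosome biogenesis and RNA polymerase I genes, together with their regulator Myc, were examined in laser-captured epithelium of mouse pancreatic tumours. The set was chosen by gene symbol from 36 names, of which 35 were listed among the 15624 genes of the deposited count table. All 35 passed the filter on low counts. Utp4 was not listed under that symbol. Its older symbol, Cirh1a, was listed and is described with the other genes of the pathway.

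The samples came from established pancreatic ductal adenocarcinomas (PDA) of KPFSR mice, 4 given corn oil, the vehicle, and 6 given tamoxifen. By knowledge of the model, and not from the labels, the animals of both groups carry Flp-activated tumour alleles driven by a pancreatic Flp transgene. By the same knowledge they carry a tamoxifen-activated Cre and floxed Slc7a11. The groups thus share the tumour alleles and are meant to differ in whether Slc7a11, the cystine importer, is deleted. They differ too in tamoxifen itself and in Cre activation, which this design cannot tell apart from loss of Slc7a11. Whether Slc7a11 was lost in each library was not examined here. The age, the sex, the dose and the time after tamoxifen were not given in the sources used here, and no label links a sample to an animal. Each p-value is therefore about the spread of these samples, and would be too small if 2 or more of them came from 1 animal.

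Ribosomes are built in the nucleolus. RNA polymerase I transcribes the ribosomal DNA into a long precursor, small nucleolar ribonucleoproteins (snoRNPs) modify it, and assembly factors cut and fold it into the small (40S) and large (60S) subunits. The transcription factor MYC is known to activate many of these genes by binding, with its partner MAX, to the E-box CACGTG, and the pathway is usually most active in growing cells.

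Replicate numbers follow the order of the samples within each treatment, since the labels give none. Libraries held 6899347 to 36132316 counts, the shallowest being tamoxifen replicate 6. Xist lay above Ddx3y, read here as female, in corn oil replicates 1 and 4 and tamoxifen replicate 6, and not in the others. Sex so read was thus uneven between the groups, and a fit with it as a covariate is given with the alternatives. Levels are normalised CPM, CPM after scaling by edgeR's TMM factors. Ductal epithelial markers summed to 16400 to 32300 normalised CPM with corn oil and 14800 to 26400 with tamoxifen, and none of the 10 was at 0 in any library. Fibroblast markers summed to 136 to 485 and 138 to 1090. Immune markers summed to 586 to 885 and 133 to 1430. Tamoxifen replicates 1, 2 and 3 stand apart from the rest: across genes, their log2 CPM correlated with each other at Pearson's r of 0.921 to 0.963, and no other pair of libraries exceeded 0.878. Results are therefore given with and without them.

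The E-boxes near the start sites are shown first, since they are the sequence by which MYC is known to act on such genes. RefSeq start-site windows on GRCm38.p6, 300 bases each with 250 before the annotated start, were found for 30 of the 36 symbols, in 33 windows. CACGTG, which reads the same on both strands, was present in 7 of the 33, which is 21.2%, against 9.34% of 14369 windows of genes in the table. After these counts were seen, each window was divided at the start. In 6 of the 7 the E-box lay in the first 50 bases after the start, 18.2% of the member windows, where 1.41% of windows of genes in the table held it. In the 250 bases before the start it was present in 1 member window, 3.03%, against 8.13%. Each site is printed 5′ to 3′ on the gene's strand with the E-box in capitals and up to 12 flanking bases.
Pes1, large-subunit assembly factor, E-box 3 bases into the transcript, chr11:3963965-3963994, + strand: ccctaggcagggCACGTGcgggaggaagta
Utp4, small-subunit processome, E-box at base 16, chr8:106893643-106893672, + strand: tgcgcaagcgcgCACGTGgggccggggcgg
Tsr1, late small-subunit assembly, E-box at base 25, chr11:74898092-74898121, + strand: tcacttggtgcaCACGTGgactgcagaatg
Ltv1, late small-subunit assembly, E-box at base 29, chr10:13193092-13193121, - strand: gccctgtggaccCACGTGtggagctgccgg
Utp20, small-subunit processome, E-box at base 38, chr10:88826765-88826789, - strand: cggcactaactaCACGTGaggaaaa
Mybbp1a, nucleolar regulator, E-box at base 41, chr11:72441355-72441376, + strand: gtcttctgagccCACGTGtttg
Nop2, large-subunit assembly factor, E-box beginning 60 bases before the start, chr6:125131811-125131840, + strand: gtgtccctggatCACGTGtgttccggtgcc

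A match is a description of these letters and not of binding, and no test was made of any motif. In all 4 motifs were counted, CACGTG as planned and 3 others added after seeing the data. The E-box CAGCTG, which reads the same on both strands, was present in 6 of the 33 windows, 18.2%, against 16.01% of windows of genes in the table. All 6 lay before the start. CACGCG or its reverse complement CGCGTG, a variant E-box, was present in 10, 30.3% against 15.7%. It was in 5 member windows before the start, 15.2% against 13.2%, and in 5 after it, 15.2% against 3.08%. CCGGAA or its reverse complement TTCCGG, the core bound by ETS factors, was present in 14, 42.4% against 24.1%. It was in 13 member windows before the start, 39.4% against 20.1%, and in 2 after it, 6.06% against 6.05%. No 2 of the 4 motifs can share bases. The Nop2 promoter held both CACGTG and the ETS core, and is shown as the only member window with CACGTG before the start. It is printed from the first base of its window to the base before the annotated start (chr6:125131633-125131882, + strand), with CACGTG and 2 ETS cores in capitals: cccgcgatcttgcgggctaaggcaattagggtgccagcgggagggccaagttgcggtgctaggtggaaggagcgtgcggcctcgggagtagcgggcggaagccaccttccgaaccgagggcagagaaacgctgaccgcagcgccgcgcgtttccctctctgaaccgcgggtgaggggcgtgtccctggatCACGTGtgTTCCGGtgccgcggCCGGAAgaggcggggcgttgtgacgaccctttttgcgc

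The comparison asked whether Myc and this set differed between tamoxifen and corn oil. Most members were somewhat higher with tamoxifen on average, by less than the spread between libraries. In tamoxifen replicates 1 to 3 Myc and most members were high, while in replicates 4 and 6 most were low. Of the 35 members 31 had a log2 fold change above 0, against 49.3% of the 13006 genes tested, and the median was 0.38, against -0.01 over all tested genes. No member passed an FDR of 0.05 in edgeR's quasi-likelihood test, where 0.0384% of all tested genes did. Their adjusted p ran from 0.393 to 0.987. DESeq2 also called 0 members, and limma voom with sample quality weights called 1, Myc. Over the whole table both called more genes than edgeR, as given with the alternatives below. At an unadjusted p under 0.05 there were 3 members higher (Myc, Gnl3 and Rrp1b), against 4.43% of all tested genes, and 0 lower, against 5.27%. The 3 are 8.57% of the members. In no member were the 6 tamoxifen libraries all above or all below the 4 corn oil libraries, whereas 1.28% of tested genes were so placed above and 1.95% below. Without tamoxifen replicates 1 to 3 the median of the members was -0.34 and 28 of 35 were lower, so the direction of the set turned with these libraries.

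Myc, on chromosome 15 at 61985391 to 61990374 (GRCm38), stood at 181, 181, 160.2 and 314 normalised CPM in corn oil replicates 1 to 4. With tamoxifen it stood at 940.4, 892 and 1042 in replicates 1 to 3, at 112 in replicate 4, at 386 in replicate 5 and at 124 in replicate 6. Replicates 1 to 3 and 5 lay above every corn oil library and replicates 4 and 6 below every one, so the tamoxifen group lay on both sides of the controls. The means were 209 ± 70.4 (SD, n = 4) and 583 ± 426 (SD, n = 6). The fitted log2 fold change was 1.48 (SE 0.61), and edgeR's adjusted p was 0.450. The exact two-sided permutation test over 210 arrangements gave p = 0.229, where the smallest possible is 0.00952. Myc was measured with 756 to 21996 reads per library, so the counting error of reads is small beside this spread. The RNA was amplified before sequencing, and error from that step was not measured. Without tamoxifen replicates 1 to 3 its log2 fold change was -0.01, and with these 3 summed as 1 sample it was 0.94. Without tamoxifen replicates 4 and 6 it was 1.96. These are the libraries in which Myc lay below every control, so leaving them out fixes the direction, and no test of that value is given.

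**Figure D1:**
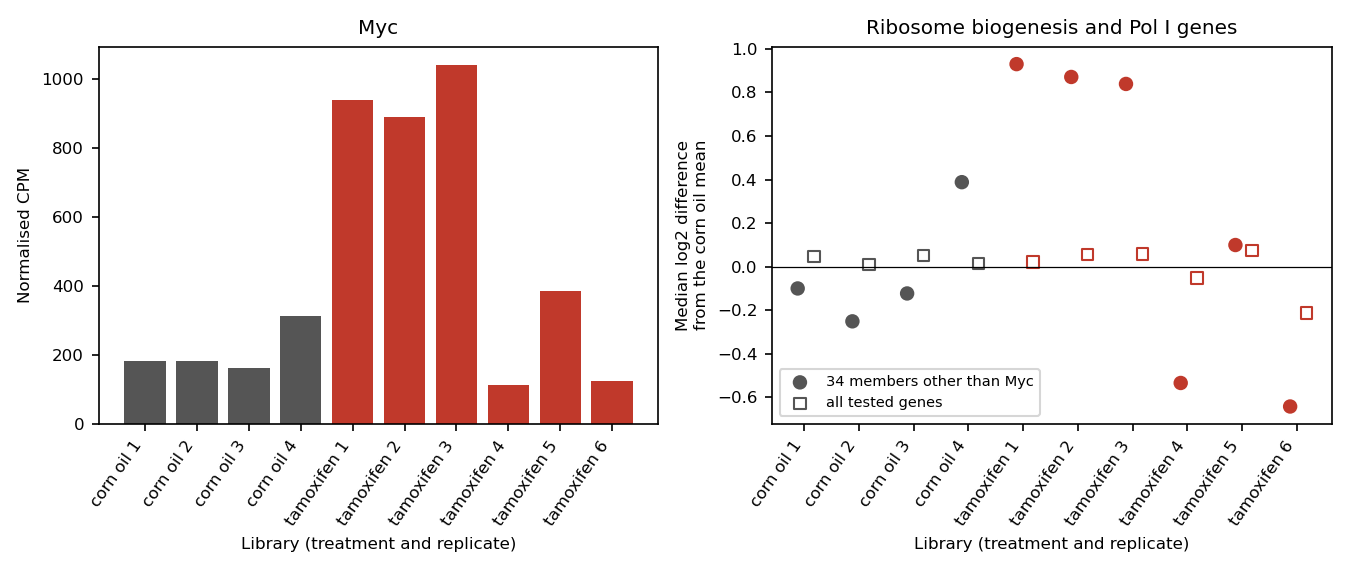
Left, Myc in normalised CPM in each library (grey, corn oil, n = 4; red, tamoxifen, n = 6). Right, for each library, the median over the 34 other members (circles) and over all 13006 tested genes (squares) of the log2 CPM difference from the corn oil mean. Tamoxifen replicates 1 to 3 are highest in both panels, with member medians of 0.93, 0.87 and 0.84, and replicates 4 and 6 are lowest in both.

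The other members followed a similar order of libraries. Over the 34 members other than Myc, the median log2 difference from the corn oil mean was 0.93, 0.87 and 0.84 in tamoxifen replicates 1 to 3. It was 0.0994 in replicate 5, -0.53 in replicate 4 and -0.64 in replicate 6. Corn oil libraries lay at -0.10, -0.25, -0.12 and 0.39, the last being replicate 4, which also had the highest Myc of the controls. The median over all tested genes stayed between -0.21 and 0.0753 in every library. No correlation with Myc over all 10 libraries is given, since tamoxifen replicates 1 to 3 form a cluster of their own. Over the other 7 libraries, which are of both treatments and were taken after the values were seen, 30 of the 34 members had a Pearson's r of log2 CPM with Myc above 0, against 59.0% of all tested genes. As a description, the median r was 0.574 and the median Spearman's rho 0.536, against 0.129 and 0.0714 over all tested genes. After removing group means the median r of the members was 0.579, against 0.131 over all tested genes. Without this step the median r was 0.480 over 5 libraries, leaving out corn oil replicate 4 and tamoxifen replicate 5. Those left out are the farthest from the median of Myc. In the 5 libraries 26 of 34 members were above 0 and their median rho was 0.200. All tested genes there had a median r of 0.164 and a median rho of 0.1, with 58.6% above 0. With Myc included, 27, 25 and 27 of the 35 members lay above every corn oil library in tamoxifen replicates 1, 2 and 3, against 23.0%, 21.6% and 22.9% of all tested genes, and 0 lay below. In tamoxifen replicates 4 and 6, 20 members each lay below every corn oil library, against 27.4% and 34.7% of all tested genes.

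In 21 of the 35 members tamoxifen replicates 1, 2 and 3 were each above every corn oil library, against 12.7% of all tested genes. In 0 members were the 3 each below, against 12.1%. These counts describe 3 libraries that were already known to resemble each other, and were made after the values were seen. The 6 of the 35 in which CACGTG was found (Pes1, Tsr1, Ltv1, Utp20, Mybbp1a and Nop2) were all among the 21. Utp4, listed as Cirh1a and not counted in the 35, was placed in the same way. Myc, Npm1, Fbl, Bop1, Rrp12 and Rrs1 had no start-site window and were not searched. Searched members without CACGTG among the 21 were Polr1a, Polr1b, Nolc1, Gnl3, Nop56, Rrp9, Dkc1, Heatr1, Nop14, Nob1, Wdr12, Nop16 and Rrp1b. Those outside the 21 were Polr1c, Polr1e, Ncl, Ddx21, Nop58, Gar1, Nhp2, Utp15, Bysl and Nat10. How often genes of the whole table with CACGTG were so placed was not counted. Whether this placing differed between members with and without CACGTG was not tested. The part of other library differences was not tested. In tamoxifen replicates 1 to 3 the summed immune markers were 133 to 376 normalised CPM, below the 586 to 885 of corn oil, with 5 of 10 tested markers below every corn oil library in all 3. The lymphocyte markers Cd3g and Cd79a were each at 0 in at least 1 library of the series. The summed ductal markers were 14800 to 16900 there, against 16400 to 32300, with 4 of 10 below every corn oil library. The summed proliferation markers were 451 to 529 there, within the 360 to 1400 of corn oil. Tamoxifen replicates 4 and 6, where members were low, had the highest summed fibroblast markers of the series, 1090 and 737, and the fewest genes with a count, 12658 and 11643. In bulk samples fewer cells of a type and less RNA per cell cannot be told apart.

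**Figure D2:**
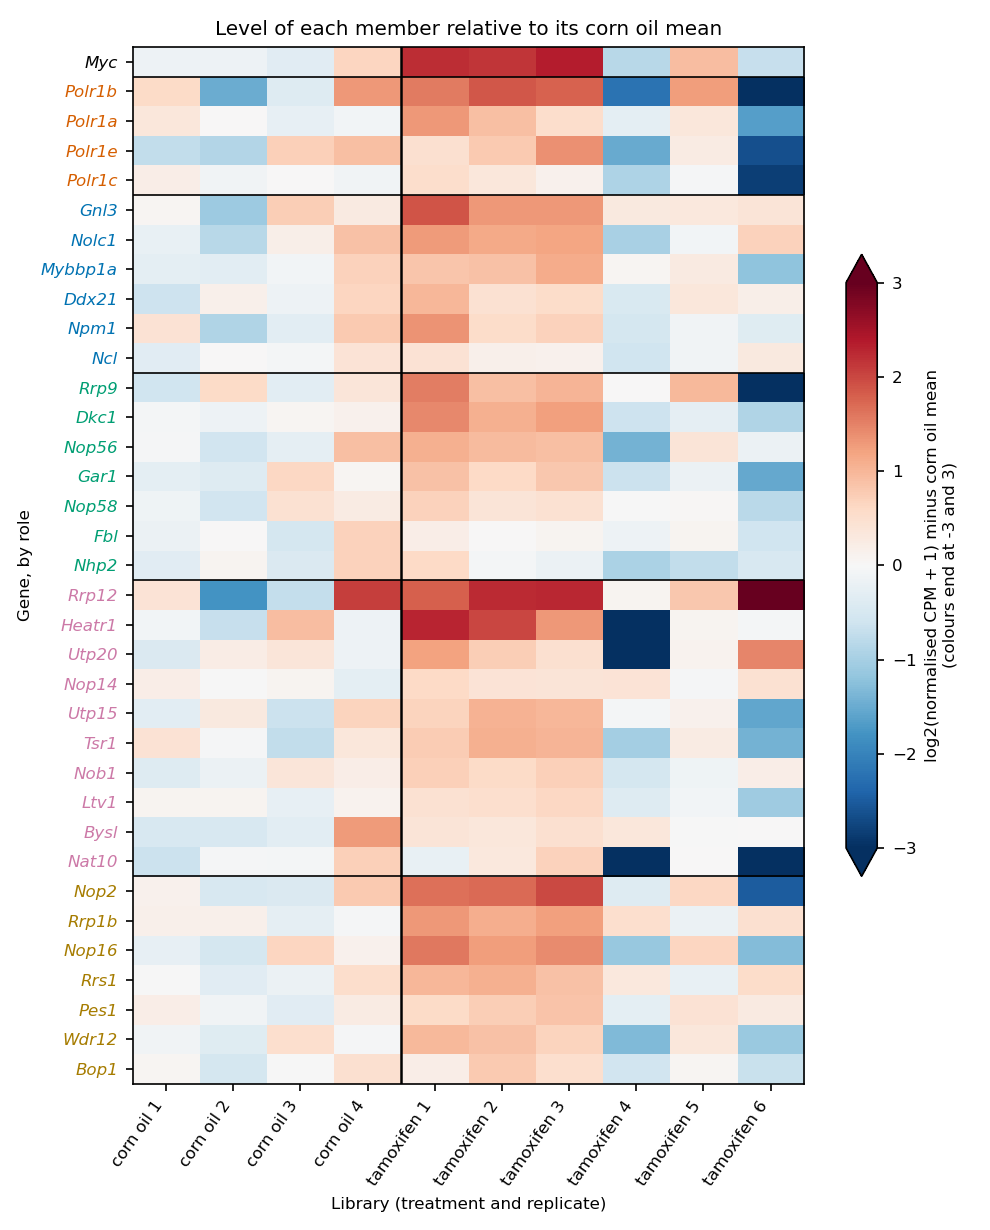
Each row is 1 member, ordered by role and coloured by it, and each column 1 library; colour gives log2(normalised CPM + 1) minus the member's mean over the 4 corn oil libraries, ending at -3 and 3. Tamoxifen replicates 1 to 3 are red in nearly every row, replicate 5 is pale, and replicates 4 and 6 are blue in most rows, with Rrp12, Nolc1 and Utp20 among the exceptions in replicate 6.

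Among RNA polymerase I subunits, Polr1a, the largest catalytic subunit, stood at 42.5, 33.7, 27.9 and 31.7 normalised CPM with corn oil. With tamoxifen it was 84.4, 63.6, 49.0, 27.3, 42.9 and 9.97 in replicates 1 to 6. Replicates 1 to 3 and 5 were above every control and the other 2 below every one. The log2 fold change was 0.45 (SE 0.47, edgeR adjusted p 0.838). Polr1b, the second catalytic subunit, was scarcer and more scattered, at 17.3, 3.35, 8.38 and 29.2 with corn oil. Tamoxifen libraries gave 35.3, 43.5 and 40.7 in replicates 1 to 3, 28.4 in replicate 5, and 1.63 and 0.490 in replicates 4 and 6, the last resting on 3 reads. The fitted change on the log2 scale was 0.78 (SE 0.98). Polr1c, a subunit shared with RNA polymerase III, had a narrow range with corn oil, at 94.3, 77.2, 83.5 and 76.5. With tamoxifen it was 119, 105.5 and 90.7 in replicates 1 to 3 and 80.2 in replicate 5. It was below the corn oil range in replicates 4 and 6, at 42.7 and 10.8. Its log2 fold change was -0.15 (SE 0.48). Polr1e had a log2 fold change of 0.10 (SE 0.77). Of these 4 subunits 3 had a value above 0 with a median of 0.27, and none passed the test.

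Nucleolar proteins that act on ribosomal DNA transcription or on the nucleolus as a whole were all 6 above 0, with a median log2 fold change of 0.39. Gnl3 (nucleostemin), a GTP-binding nucleolar protein of proliferating and stem cells, stood at 75.5, 33.6, 122 and 87.8 with corn oil. It stood at 272, 179 and 180.0 in tamoxifen replicates 1 to 3 and at 88.3, 89.9 and 94.8 in replicates 4 to 6. Replicates 1 to 3 lay above all controls and the other 3 within their range. The log2 fold change was 0.92 (SE 0.41), with an unadjusted p of 0.0453 and an edgeR adjusted p of 0.503. Nolc1 (Nopp140), a snoRNP chaperone that binds RNA polymerase I, was 90.4, 59.5, 119 and 197 with corn oil. Tamoxifen libraries gave 261, 233 and 240.4 in replicates 1 to 3, and 53.7, 99.9 and 171 in replicates 4 to 6, so that only the first 3 exceeded every control. The log2 fold change was 0.60 (SE 0.44). Mybbp1a, which binds MYB and the RNA polymerase I machinery and holds an E-box at base 41, was 85.1, 83.3, 98.5 and 169 with corn oil. With tamoxifen it was 187, 194 and 227 in replicates 1 to 3, above every control, and 108, 126 and 44.8 in replicates 4 to 6. The fitted change on the log2 scale was 0.44 (SE 0.40). Ncl (nucleolin) had the log2 fold change nearest 0 among these 6, at 0.06 (SE 0.25), with 421 to 710 normalised CPM under corn oil and 352 to 730 under tamoxifen. Npm1 (nucleophosmin), the nucleolar histone chaperone, had the highest level per length of these 6. It was 506, 199, 298 and 644 with corn oil and 952, 546, 607, 257, 348 and 290.4 in tamoxifen replicates 1 to 6. Only replicate 1 lay above every control, and the log2 fold change was 0.28 (SE 0.42). Ddx21, an RNA helicase, was at 0.34 (SE 0.34).

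**Figure D3:**
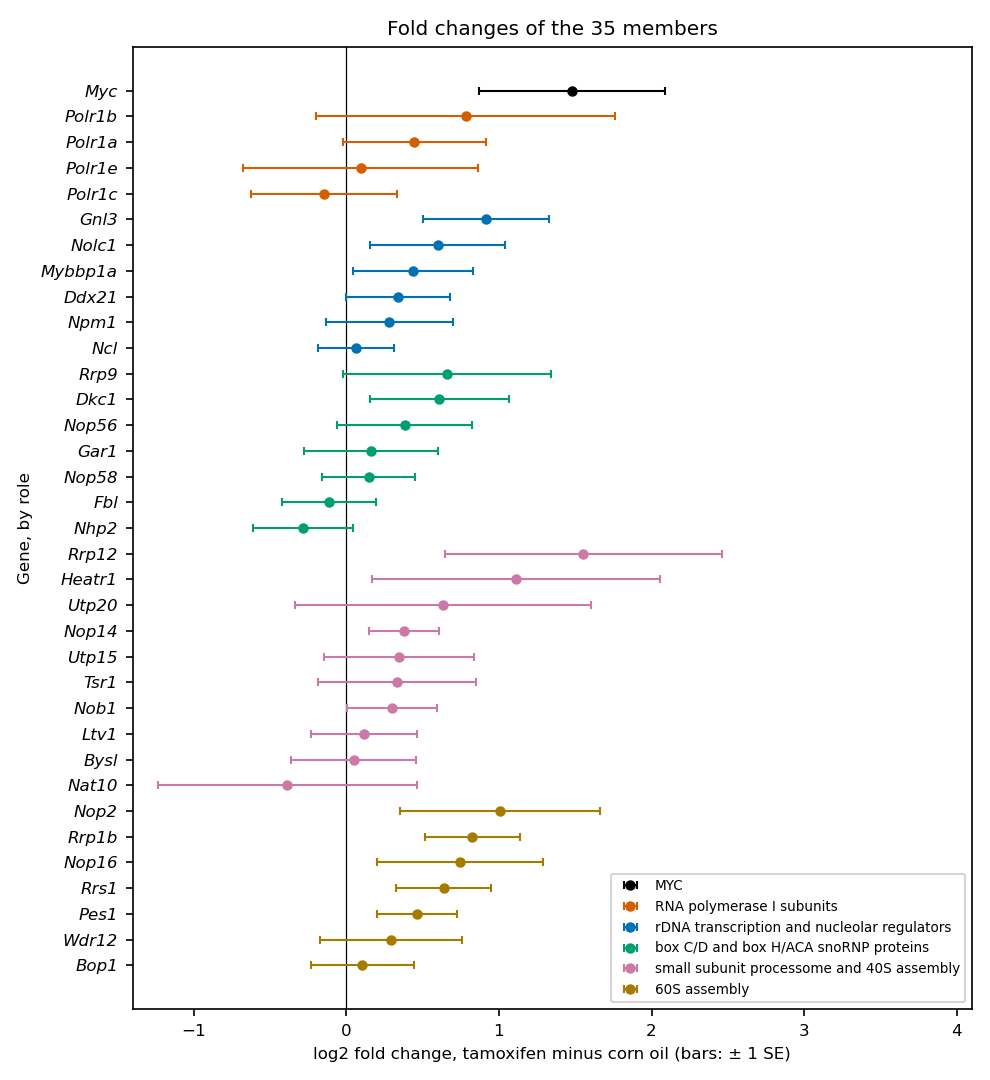
Log2 fold change of each of the 35 members, tamoxifen (n = 6) minus corn oil (n = 4), with bars of 1 SE on each side, coloured by role. Points run from -0.39 (Nat10) to 1.55 (Rrp12), 31 of 35 lie above 0, and none passed an FDR of 0.05.

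The snoRNP proteins form the cores that guide rRNA modification. Of the 7 members 5 were above 0, with a median log2 fold change of 0.16. Dkc1 (dyskerin), the pseudouridine synthase of box H/ACA particles, had the narrowest controls, at 68.7, 64.4, 74.9 and 78.6. Tamoxifen replicates 1 to 3 were at 195, 149.9 and 168 and replicates 4, 5 and 6 at 45.8, 59.4 and 37.6. Every tamoxifen library thus lay outside the range of the corn oil libraries, 3 above and 3 below, and the log2 fold change was 0.61 (SE 0.45, edgeR adjusted p 0.740). Its partners Gar1 and Nhp2 were at 0.16 (SE 0.44) and -0.28 (SE 0.33). Nhp2, which also serves telomerase, was 222, 298, 208 and 459 with corn oil and 427, 269 and 251 in tamoxifen replicates 1 to 3, against 145, 169.6 and 201 in replicates 4 to 6. Of the box C/D proteins, Nop56 was 152, 105, 129 and 291 with corn oil. It was 329.5, 302 and 291.5 in tamoxifen replicates 1 to 3 and 57.6, 206 and 137 in replicates 4 to 6, so that the first 3 stood just above the highest control. Its log2 fold change was 0.38 (SE 0.44), with Nop58 at 0.15 (SE 0.30) and the methyltransferase Fbl (fibrillarin) at -0.11 (SE 0.31). Fbl was among the most even members, with 27.0 to 64.3 normalised CPM under corn oil and 25.7 to 45.3 under tamoxifen. Rrp9, the protein of the U3 particle needed for the first cuts of the precursor, was 20.6, 47.5, 25.2 and 41.1 with corn oil and 94.1, 60.7, 65.8, 32.3, 63.6 and 1.63 in tamoxifen replicates 1 to 6. Replicate 4 lay within the controls and replicate 6 below them. The log2 fold change was 0.66 (SE 0.68).

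Small-subunit processome and assembly genes had 9 of 10 members above 0 and a median log2 fold change of 0.34. Rrp12, a nuclear export and assembly factor, had the highest value of the whole set at 1.55 (SE 0.91, edgeR adjusted p 0.648). It was scarce, with 6.71, 0.671, 2.54 and 23.5 under corn oil. Under tamoxifen it was 18.9, 26.4, 26.6, 5.15, 9.15 and 61.4 in replicates 1 to 6, the highest being replicate 6. Nop14, a processome subunit, was 64.9, 56.4, 60.4 and 46.4 with corn oil. Tamoxifen libraries gave 86.4, 75.8, 74.0, 75.7, 54.8 and 78.4 in replicates 1 to 6, higher than every control in all but replicate 5. It varied little within groups, and its log2 fold change was 0.38 (SE 0.23, edgeR adjusted p 0.665). Heatr1, a large scaffold protein needed for ribosomal DNA transcription and processing, was 8.37, 5.12, 18.1 and 8.03 with corn oil and 47.4, 39.2 and 23.4 in tamoxifen replicates 1 to 3. It was 9.55 and 8.50 in replicates 5 and 6 and 0.189 in replicate 4, from 3 reads. The log2 fold change was 1.11 (SE 0.94). Utp20, another long scaffold, was listed at 0 in tamoxifen replicate 4 and at 12.4 to 33.2 in the others, against 8.19 to 14.8 with corn oil, and its log2 fold change was 0.64 (SE 0.97). Nob1, the nuclease that makes the mature 3′ end of 18S rRNA, was 55.2, 63.8, 93.4 and 82.4 with corn oil. With tamoxifen it was 118, 108 and 118 in replicates 1 to 3, above every control, and 49.9, 66.2 and 83.2 in replicates 4 to 6. The fitted change on the log2 scale was 0.30 (SE 0.30). Tsr1, Ltv1 and Bysl, which act late on the small subunit, were at 0.33 (SE 0.52), 0.11 (SE 0.35) and 0.05 (SE 0.41), and Utp15, a processome subunit, at 0.34 (SE 0.49). Nat10, the acetyltransferase of 18S rRNA, was the lowest member at -0.39 (SE 0.85), with 0.754 and 0.817 in tamoxifen replicates 4 and 6 against 14.0 to 27.0 in the other 4.

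Large-subunit assembly genes were all 7 above 0, with the highest group median, 0.64. Rrp1b, a nucleolar protein of the large-subunit pathway, had the smallest p of the set. It stood at 53.4, 53.1, 39.5 and 46.6 with corn oil and at 119, 103, 113, 68.3, 42.1 and 67.5 in tamoxifen replicates 1 to 6. All tamoxifen libraries but replicate 5 lay above the controls. The means were 48.2 ± 6.56 (SD, n = 4) and 85.4 ± 30.5 (SD, n = 6). The fitted log2 fold change was 0.83 (SE 0.31), with an unadjusted p of 0.0208 and an edgeR adjusted p of 0.393. Rrs1, which brings the 5S RNA particle into the precursor, was 45.7, 35.97, 40.8 and 67.1 with corn oil. It was 93.1, 97.8 and 86.3 in tamoxifen replicates 1 to 3, and 58.0, 39.6 and 67.5 in replicates 4 to 6. Its log2 fold change was 0.64 (SE 0.31, edgeR adjusted p 0.552). Pes1 (pescadillo) forms a complex with Bop1 and Wdr12. The 3 were unequal, at 0.46 (SE 0.26), 0.10 (SE 0.34) and 0.29 (SE 0.46). Pes1 was 84.5, 69.1, 57.7 and 88.3 with corn oil and 111, 124, 135, 60.3, 100.4 and 89.2 in tamoxifen replicates 1 to 6, so that all but replicate 4 exceeded every control. Nop2, an rRNA methyltransferase whose promoter is printed above, was 42.0 to 102 with corn oil. It reached 188, 193 and 234 in tamoxifen replicates 1 to 3 and was 9.64 in replicate 6. The log2 fold change was 1.01 (SE 0.66, edgeR adjusted p 0.690). Nop16 had a similar order of libraries, with 77.6, 64.2, 144 and 101 in corn oil and 279, 223 and 247 in tamoxifen replicates 1 to 3, against 41.5, 145 and 36.8 in replicates 4 to 6, and a log2 fold change of 0.74 (SE 0.54).

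Levels could be compared between members only per length, as normalised CPM per kb of annotated exon. In corn oil libraries Nhp2 was highest at 259 ± 100.4 (SD, n = 4), followed by Npm1 at 155 ± 75.3, Myc at 76.9 ± 25.9, Ncl at 53.6 ± 11.8 and Nop16 at 52.4 ± 19.0. Nhp2 and Npm1, and Npm1 and Myc, differed by slightly more than the larger SD of the pair, with overlapping libraries, while Myc, Ncl and Nop16 lay within 1 SD of the next. The lowest were Rrp12 at 1.93 ± 2.40, Heatr1 at 1.26 ± 0.719 and Utp20 at 1.14 ± 0.298. These 3 overlapped. With tamoxifen Myc stood at 215 ± 157 (SD, n = 6) and Nhp2 at 213 ± 88.3, so their order cannot be given. Exon length was taken over all annotated transcripts, which lowers the per-kb level of genes with long retained introns such as Ncl.

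**Figure D4:**
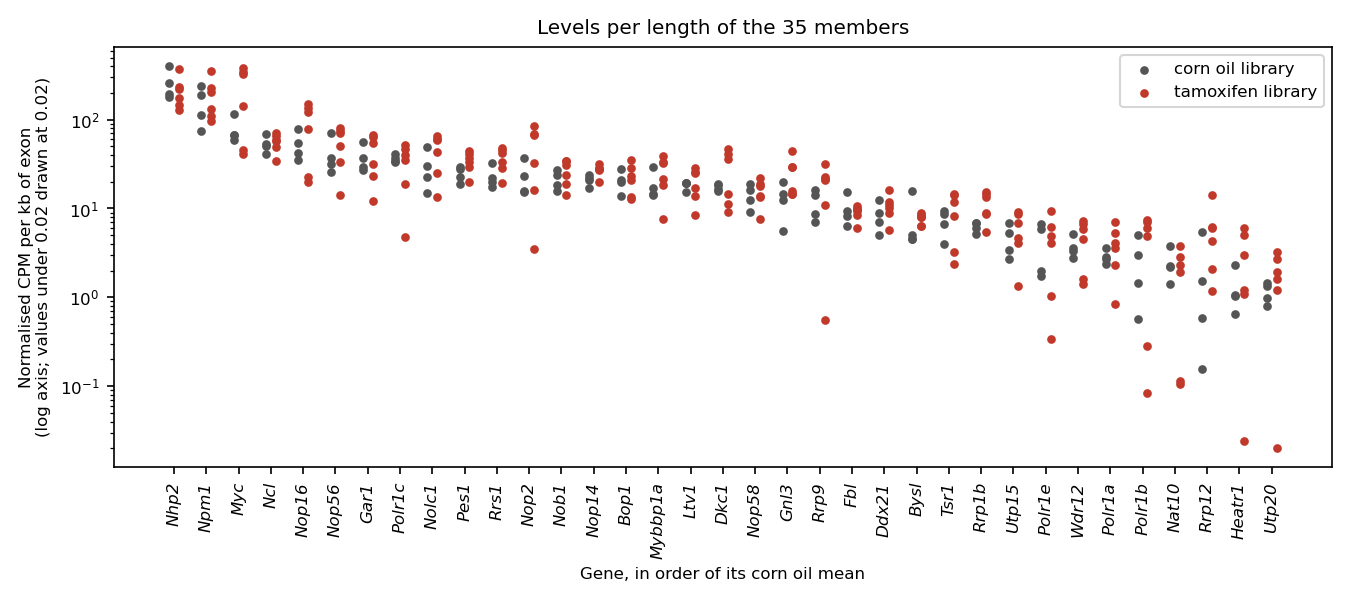
Normalised CPM per kb of exon on a log axis for each member, in order of the corn oil mean; grey points are the 4 corn oil and red points the 6 tamoxifen libraries. Levels span from 259 for Nhp2 to 1.14 for Utp20 in corn oil means. The red points of several scarcer genes, such as Nat10 and Polr1b, reach lower than the grey ones in tamoxifen replicates 4 and 6. Those of Utp20 and Heatr1 do so only in replicate 4, and those of Rrp12 do not.

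Some members also shared a feature of gene structure. By GENCODE M21, 6 of the 35 (17.1%) held snoRNA genes within their bounds on the same strand, against 1.56% of 14617 genes of the table with a unique symbol. These were Nop56 with 5, Nop58 with 4, Ncl and Gnl3 with 3 each, Tsr1 with 2 and Dkc1 with 1. Among them Nop56, Nop58 and Dkc1 are themselves snoRNP proteins. Members lay on 17 chromosomes, and 15 share exon sequence with a gene on the opposite strand, among them Gnl3, Rrp1b, Nop56, Dkc1, Nop14 and Pes1. The share over all genes of the table was not counted, so the 15 are not read as a trait of the members. The library kits do not mark strand, so reads from the shared stretches cannot be told apart from those of the partner. The length of these stretches and the levels of the partners were not examined.

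Of 144 other ribosome biogenesis genes in the table, all tested, 102 (70.8%) had a log2 fold change above 0, with a median of 0.19. None passed the FDR in edgeR, and 10 were higher and 0 lower at an unadjusted p under 0.05, that is 10 of 144 against the 4.43% and 5.27% given above. Other large-subunit assembly genes had 43 of 52 above 0 (median 0.24), other small-subunit genes 36 of 51 (0.17), other snoRNP genes 7 of 11 (0.27), other RNA polymerase I subunits and initiation factors 10 of 16 (0.20), and exosome genes, which trim the precursor, 6 of 14 (-0.08). The 4 of smallest p were Riok3, a kinase of small-subunit assembly, at 1.11 (SE 0.32), Sbds, which releases eIF6 from the large subunit, at 0.89 (SE 0.27), Skiv2l2, the helicase of the nuclear exosome, at 1.12 (SE 0.34), and Pak1ip1, a large-subunit factor, at 0.92 (SE 0.28). Their edgeR adjusted p was 0.260 to 0.299. Riok3 and Sbds did not share the order of libraries seen in the members. Riok3 was highest in tamoxifen replicate 4 at 256, with 80.8 to 115 in replicates 1 to 3 and 54.8 to 69.8 with corn oil. Sbds was highest in tamoxifen replicate 6 at 364, with 196 to 231 in replicates 1 to 3 and 93.0 to 179 with corn oil. Cirh1a, the listed name of Utp4, was 148, 138 and 177 in tamoxifen replicates 1 to 3 and 51.2 to 88.1 with corn oil, a log2 fold change of 0.66 (SE 0.41). In 51 of the 144 (35.4%) tamoxifen replicates 1 to 3 were each above every corn oil library, and in 4 (2.78%) each below.

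Of 12 tested genes of the MYC network, 9 were above 0 with a median of 0.32, and none passed the FDR in edgeR. Mycn, a MYC paralogue, was 83.6, 39.8, 130.6 and 29.2 with corn oil and 17.1 to 40.5 with tamoxifen. The fitted change on the log2 scale was -1.54 (SE 0.42), with an unadjusted p of 0.00288 and an edgeR adjusted p of 0.229. Its ranges overlapped, opposite in direction to the mean of Myc. Mxi1, which competes with MYC for MAX, was 26.3 to 92.3 with corn oil and 92.9 to 224 with tamoxifen, higher in 6 of 6 tamoxifen libraries than in any control by a narrow gap, with a log2 fold change of 1.25 (SE 0.38 and an edgeR adjusted p of 0.294). Usp28, a deubiquitinase of MYC, was at 1.57 (SE 0.70), from 1.37 to 5.88 with corn oil and 6.03 to 19.4 with tamoxifen, and Mlx, a related E-box factor, at -0.63 (SE 0.37). Max, the obligate partner, was at 0.51 (SE 0.32).

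Proliferation markers often go with ribosome production, as background. Of 13 tested, 10 were below 0, with a median log2 fold change of -0.82. At an unadjusted p under 0.05, 0 were higher and 6 lower, against 4.43% and 5.27% of all tested genes. None passed the FDR in edgeR. Pcna, the replication clamp, was 81.1 to 122 with corn oil and 46.4 to 66.2 with tamoxifen, and Mki67, a marker of cycling cells, 19.95 to 103 and 8.57 to 58.3. Mcm7, a subunit of the replicative helicase, was above 0 at 0.39 (SE 0.47), with 29.98 to 78.0 and 13.8 to 102. These 3 are outside the rule for named genes and were chosen after their values were seen. In tamoxifen replicates 1 to 3, where Myc was high, 2 of the 13 (15.4%) were each below every corn oil library and 0 each above. Of all tested genes 12.1% were so placed below and 12.7% above.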

How the data were processed

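RNA-seq counts from 10 libraries of laser-captured KPFSR tumour epithelium were used, 4 corn oil and 6 tamoxifen by their treatment label. Per the labels' protocols, RNA from a Qiagen micro kit was amplified with SMART-seq v4, and Nextera XT was used for the libraries. The deposited table holds the authors' unnormalised counts by gene symbol. The submitters' processing notes name STAR 2.5.2b, featureCounts 1.5.0-p3, bcl2fastq 2.17 and mm10. Not given in the sources used here are the annotation, the strand setting and the treatment of reads that map to several places, so reads of Npm1 and other genes with near-identical pseudogenes may be split.

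Counts were tested with edgeR 4.0.16 in R 4.3.3 by the quasi-likelihood F test over all 13006 genes kept by filterByExpr, with TMM factors, no covariate and Benjamini-Hochberg adjustment at an FDR of 0.05. SEs were computed from the F test, dividing the size of the log2 fold change by the root of F. A prior count of 2 was used for log2 CPM. The test was checked on simulated data, where it did not recover the smallest changes simulated, which were larger than those of most members, so a member that missed the threshold is not shown to be alike in both groups. Myc was also tested by an exact permutation test. Levels per length used the union of exons in GENCODE M21 (GRCm38, the assembly of mm10), and start-site sequences came from RefSeq on GRCm38.p6. The searches for the 3 motifs other than CACGTG, the division of start-site windows at the start, the counts over tamoxifen replicates 1 to 3 and the comparison of spreads were added after seeing the data. The planned correlations with Myc over all 10 libraries are not reported, as stated with the results, and those over 7 were added.

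The members, lists, alternatives and rule for named genes were chosen with earlier results of these data known. The rule was to account for every member, to give library values for Myc and for the 3 members of smallest p and the highest level per length in each role, and to name the 4 genes of smallest p among the other ribosome biogenesis genes and in the MYC network. Alternatives tried were other scaling (RLE, upper quartile), no filter or one of 5 CPM in 4 libraries, DESeq2 1.42.0, voom in limma 3.58.1 with sample quality weights, robust dispersion, FDR 0.1, covariates (detected genes, sex read from Xist and Ddx3y, fibroblast markers), leaving out each library, and summing or leaving out tamoxifen replicates 1 to 3 or leaving out 4 and 6. Figures were drawn with matplotlib 3.10.9.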

Additional observations from a re-analysis of the deposited data

Results flagged for a closer look

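Each library was set against the others of its treatment for every member and for the members' median, 72 tests of extremes in all. Of these, 4 found a library far from the others. Chance gives about 1 in 20, a share near 4 of 72. The tests are also not independent, since most members followed a similar order of libraries. Corn oil replicate 4 was highest for Myc (314 normalised CPM, others 160 to 181), for Bysl, a small-subunit assembly factor (60.6, others 17.3 to 19.5), and for the median log2 difference of the members from their corn oil mean (0.404, others -0.177 to -0.116). The lowest value of Ltv1, another small-subunit assembly factor, was that of corn oil replicate 3 (35.2, others 44.4 to 45.2).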

How the results depend on the processing

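No member passed the FDR in edgeR under any alternative run, except Myc without tamoxifen replicates 4 and 6 (log2 fold change 1.96). These are the libraries with Myc below every control, so that this call follows from the choice of libraries. Myc was also called by limma voom with sample quality weights (2.03). Each of these settings called 1 member, where 77 and 1251 genes of the whole table passed. The median of the members stayed above 0 in every alternative but 1, from 0.10 with tamoxifen replicates 1 to 3 summed as 1 sample to 0.70 with voom and without tamoxifen replicates 4 and 6; without replicates 1 to 3 it was -0.34. Members' log2 fold changes had another sign than in the reported fit in 65 instances over all alternatives. Without tamoxifen replicates 1 to 3 these were 24 of 35: Myc -0.0104, Polr1a -0.34, Polr1b -0.52, Polr1e -1.14, Ncl -0.11, Npm1 -0.46, Nolc1 -0.10, Mybbp1a -0.23, Ddx21 -0.0159, Nop56 -0.34, Nop58 -0.27, Rrp9 -0.0444, Dkc1 -0.59, Gar1 -0.74, Utp15 -0.43, Heatr1 -0.70, Bysl -0.11, Tsr1 -0.63, Ltv1 -0.47, Nob1 -0.15, Bop1 -0.40, Wdr12 -0.55, Nop2 -0.38 and Nop16 -0.38. With replicates 1 to 3 summed these were 10: Polr1e -0.34, Ncl -0.0202, Npm1 -0.0693, Nop58 -0.0430, Gar1 -0.22, Bysl -0.0116, Tsr1 -0.0407, Ltv1 -0.13, Bop1 -0.0963 and Wdr12 -0.0657. With sex as a covariate, where the median was 0.24, these were 6: Polr1e -0.54, Nop58 -0.0579, Rrp9 -0.27, Gar1 -0.29, Ltv1 -0.10 and Wdr12 -0.0665. The others were Polr1c 0.15, Fbl 0.0967 and Nat10 0.32 with voom, Polr1c 0.25, Fbl 0.0239 and Nat10 0.17 without tamoxifen replicates 4 and 6, Polr1e -0.0954 with detected genes as a covariate, and Polr1c 0.14 and Bysl -0.11 with fibroblast markers as a covariate. With 1 library left out, 10 members crossed 0, with ranges of -0.0457 to 0.29 for Bop1, -0.13 to 0.72 for Bysl, -0.27 to 0.18 for Fbl, -0.0184 to 0.42 for Gar1, -0.0425 to 0.22 for Ncl, -0.52 to 0.00650 for Nhp2, -0.0155 to 0.32 for Nop58, -0.00661 to 0.58 for Npm1, -0.33 to 0.0799 for Polr1c and -0.25 to 0.45 for Polr1e. The number of members at an unadjusted p under 0.05 was 15 with voom, 16 without tamoxifen replicates 4 and 6, 1 without tamoxifen replicates 1 to 3 (lower) and 0 with these summed. With 1 library left out it was 1 to 5, being 1 without corn oil replicate 1, 2 or 3 or tamoxifen replicate 1, 2 or 3, and 5 without tamoxifen replicate 4 or 6. The number among other ribosome biogenesis genes was 42 with voom, 41 without tamoxifen replicates 4 and 6, 2 without replicates 1 to 3, and 8 to 22 with 1 library left out. DESeq2 gave 15 such genes. The share of all tested genes at an unadjusted p under 0.05 was counted only for the reported fit. The counts under alternatives therefore have none beside them. In tamoxifen replicates 4 and 6, 20 members each lay below every corn oil library. Leaving out these libraries raises the members by choice, as for Myc. The 16 members and the median of 0.70 in that setting are therefore no further support for a rise. Genes past the FDR over the whole table were 5, against 243 with DESeq2, 1251 with voom, 18 at an FDR of 0.1, 21 with detected genes as a covariate, 9 with fibroblast markers as a covariate, 77 without tamoxifen replicates 4 and 6, and 0 with sex as a covariate, with tamoxifen replicates 1 to 3 summed or without them; with 1 library left out they were 0 to 11. Apart from settings with fewer samples or at another FDR, the cause was not tested. No paired analysis was possible because no label links a sample to an animal or to a sample of the other treatment. Low counts limit the scarcest members: 5 had fewer than 10 reads in some library. Tamoxifen replicate 4, with a total of 16551859 counts, held 0 reads of Utp20 and 3 of Heatr1. Corn oil replicate 1, with 16473902, held 133 and 136. The cause of these low counts was not tested.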

Other observations

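The libraries of the tamoxifen group differed from each other more than those of the corn oil group in most members. The SD of log2 CPM was larger with tamoxifen in 29 of 35 members (82.9%), with medians of 0.505 for corn oil and 0.964 for tamoxifen. It was larger in 60.8% of all tested genes, with medians of 0.654 and 0.828, and in 72.9% of the 144 other ribosome biogenesis genes, with medians of 0.392 and 0.569. No test was made of this difference. The members with the smallest SD within the tamoxifen group were Bysl (0.218), Nop14 (0.222), Fbl (0.295) and Ncl (0.372), and those of Bysl and Fbl were larger with corn oil (0.877 and 0.525). Dkc1 and Polr1c had the smallest SD with corn oil (0.128 and 0.140), against 1.05 and 1.30 with tamoxifen.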
